A study of Schizosaccharomyces pombe with 8 samples.

Results

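Among the genes that the RNase III Pac1 associated with on chromatin in the fission yeast Schizosaccharomyces pombe were 7 genes for abundant proteins of translation and protein folding. They comprised 2 elongation factor genes (tef103 and tef3), 3 ribosomal protein genes (rpl22, rpl39 and ubi3) and 2 genes for chaperones of the Hsp70 family (sks2 and ssa2). The 7 genes were chosen from the Pac1 peak list by name, so their presence in the list is not a result. They made up 7 of the 166 distinct genes that the list pairs with a peak. Over the whole genome, 95 of 5113 protein-coding genes of the reference annotation were entered in the list, or 1.86%, which is the background for every count of listed genes below.

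The list rests on chromatin immunoprecipitation followed by sequencing (ChIP-seq) of 2 Pac1-TAP immunoprecipitates, each called against its own input. All 4 libraries came from strain FBY2277, of mating type h+, in which Pac1 carries a TAP tag (Pac1-TAP-natMX6). The strain also carries ade6-M216 and leu1-32, together with ura4-D18 and with his3-D1, and it was grown in EMM, a minimal medium, with no rapamycin. The series also holds 2 RNA polymerase II immunoprecipitates and their inputs, from a Pac1 anchor-away strain and its control strain, which were not analysed here. No library of an untagged strain is among the samples used, so the peaks are relative to input alone. The study describes the Pac1-TAP libraries, numbered in the labels, as biological replicates. The authors combined the peaks of both replicates into 1 list with 1 p-value per peak. The values below therefore carry no replicate error, the depth behind them is unknown, and no test was made between genes.

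Pac1 cuts double-stranded stems in RNA, and it is known for processing the precursors of ribosomal RNA and of small nuclear and nucleolar RNAs. Elongation factors carry aminoacyl-tRNA to the ribosome or move the ribosome along the mRNA. Ribosomal proteins build its subunits, and Hsp70 chaperones bind newly made or unfolded proteins in a cycle of ATP hydrolysis. In growing yeast the genes for these proteins are among the most strongly transcribed by RNA polymerase II. Many promoters of this kind in fission yeast lack a TATA box and carry instead a HomolD box, a short element first described at ribosomal protein genes.

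The sequences before 4 of the 7 genes held a HomolD box, and these stretches are shown because they place the peaks relative to the promoter. The letters searched were CAGTCACA, on both strands, from 250 bases before to 50 bases after the gene start of the ASM294v3 reference (RefSeq). Each stretch below is written 5′ to 3′ on the strand of the gene, with the box in capitals. A box on the other strand therefore reads TGTGACTG. The first base of the box lies at the stated distance before the gene start.
tef103 (59 bases before, other strand): aacgaacgttaTGTGACTGctttttttgcg
tef3 (139 bases before): aagaaaaagaaCAGTCACAttgtaaatatg
rpl39 (68 bases before): ccttcaaaagaCAGTCACAgttgtgaaaaa
rpl39 (45 bases before): tgaaaaaagagCAGTCACAttcgctttagt
sks2 (49 bases before, other strand): tgtatattattTGTGACTGctgatactgtt

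These letters were found in 137 of 5112 promoters of the genome, or 2.68%. With only the gene strand searched, they were found in 2 of the 7 genes (tef3 and rpl39) and in 1.58% of promoters. They were not found in the same window of rpl22, ubi3 or ssa2. The window of ssa2 instead held the core of a heat shock element, the site of the heat shock transcription factor, searched as GAANNTTC. It is shown with the core in capitals, together with the same element of ssa1, the closest paralog of ssa2, which had no peak.
ssa2 (59 bases before): tagggttttggGAAACTTCgagaaccgtag
ssa1 (58 bases before): ttagggttggtGAAGGTTCgagaatggaca

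The heat shock element core was present in 11.1% of all promoters and, of the 7 genes, in ssa2 alone. It was also found in 3 of the 15 paralogs described below (ssa1, ssc1 and pss1), none of them listed. The letters TATAAA, present in 48.1% of all promoters, were found in rpl22 alone among the 7. Of the genes with a HomolD box, the peak reached the box only at tef103. There the box lay inside the peak, 14 bases from its edge. At tef3 the peak began 133 bases after the box. At rpl39 it began 41 bases after the nearer box, and at sks2 82 bases after it. At ssa2 the peak began 45 bases after the heat shock element core.

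**Figure D1:**
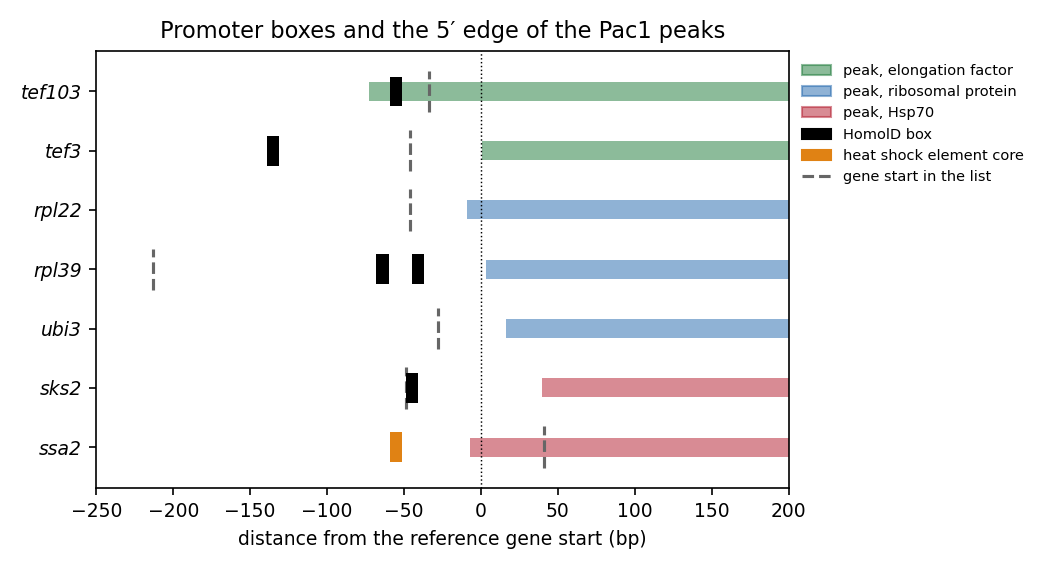
Position of promoter boxes and of the 5′ edge of each Pac1 peak, in bp from the gene start of the reference annotation. Coloured bars are the peaks (running on to the right), black marks HomolD boxes, the orange mark the heat shock element core and dashed lines the gene start of the list. Only the box of tef103 lies within a peak.

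Each peak was wider than the gene it lay on, at 100.7% of the listed gene length in sks2 up to 148.3% in ubi3, for genes of 528 to 3353 bp. tef3, which encodes eEF3, an ATPase of the fungal ribosome, lay at III:1685599-1688951 on the plus strand (SPCC417.08). Its peak, III:1685646-1689123, was 3478 bp wide, the 5th widest of the 88 peaks, for a gene of 3353 bp. rpl39, which encodes the small protein eL39 of the large subunit (SPCC663.04), had the narrowest peak of the 7. This peak, III:1641019-1641640, was 622 bp wide for a listed gene of 593 bp. The narrowest of all 88 peaks spanned 545 bp, the widest 5433 bp and the median peak 1378.5 bp. Pearson's r of peak width against gene length was 0.992 over the 7 genes. It was 0.415 over 58 other listed genes for proteins that hold the centre of their peak and 0.259 over the 20 others that are the single gene of a peak. These coefficients are descriptions across genes of 1 list, where peaks share the same libraries, and their difference was not tested.

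**Figure D2:**
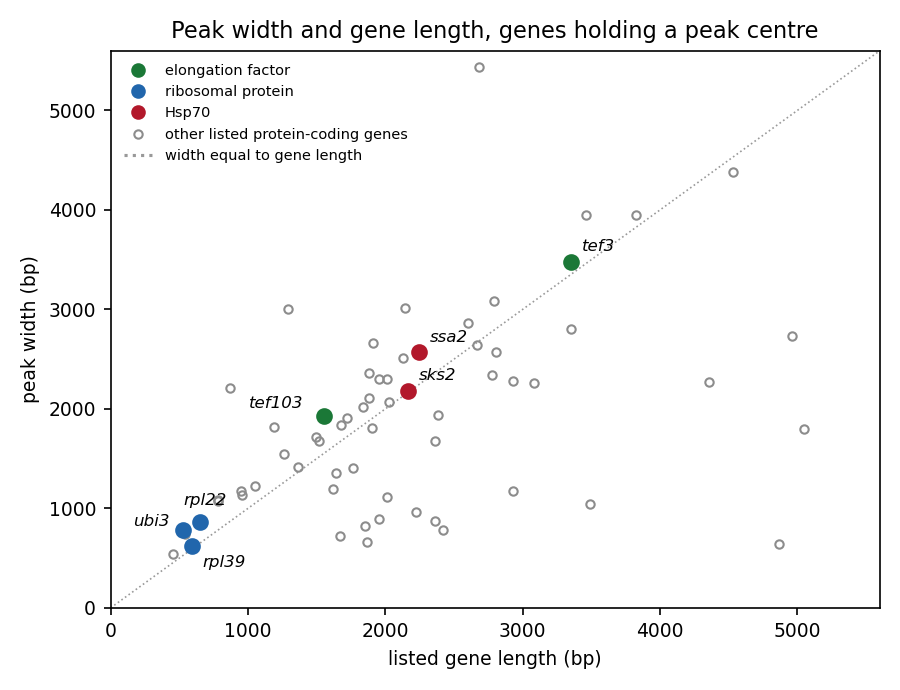
Peak width against listed gene length, both in bp, for the 7 genes (filled, coloured by group) and for the 58 other listed genes for proteins that hold the centre of their peak (open circles). The dotted line marks equal width and length; all 7 genes lie above it, with widths of 100.7 to 148.3% of the gene length.

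Of the elongation factor genes, tef103 encodes EF-1 alpha, the factor that delivers aminoacyl-tRNA to the ribosome. It lay at II:626004-627556 on the minus strand (SPBC839.15c), under a peak at II:625672-627595 with a combined p-value of 1.85e-210. The peak covered 100% of the gene and reached 39 bp past its 5′ end and 332 bp past its 3′ end. The peak at tef3 had a combined p-value of 1.56e-133 and covered 98.6% of the gene. It began 47 bp inside the 5′ end, an overhang of -47 bp, and reached 172 bp past the 3′ end. Thus both were covered almost from end to end, with the larger overhang at the 3′ end. The median 3′ overhang of this group was 252 bp and its median 5′ overhang -4 bp.

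Of the ribosomal protein genes, rpl22 encodes eL22 of the large subunit (SPAC11E3.15) and lay at I:5314778-5315429 on the plus strand. Its peak, I:5314815-5315677, had a combined p-value of 7.91e-118 and covered 94.3% of the gene, with an overhang of -37 bp at the 5′ end and 248 bp at the 3′ end. ubi3 encodes ubiquitin fused to protein eS31 of the small subunit (SPAC6G10.11c), and lay at I:3237895-3238422 on the minus strand. Its peak, I:3237596-3238378, had a combined p-value of 1.18e-105 and covered 91.7% of the gene, with -44 bp at the 5′ end and 299 bp at the 3′ end. rpl39 lay at III:1640803-1641395 on the plus strand, and its peak had a combined p-value of 6.14e-74. This was the highest of the 7, and only 1 of the 88 peaks had a higher value (9.75e-59). Its peak covered 63.6% of the listed gene, with -216 bp at the 5′ end and 245 bp at the 3′ end. The 3′ overhangs of these genes, the shortest of the 7, all lay between 245 and 299 bp.

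Of the Hsp70 genes, sks2 encodes the chaperone that works on the ribosome (SPBC1709.05) and lay at II:1106347-1108511 on the plus strand. Its peak, II:1106436-1108616, had a combined p-value of 6.37e-132 and covered 95.9% of the gene, with -89 bp at the 5′ end and 105 bp at the 3′ end. ssa2 encodes a general cytosolic Hsp70 (SPCC1739.13) and lay at III:2057084-2059331 on the plus strand. Its peak, III:2057036-2059602, was listed with a p-value of 0, as were 34 of the 88 peaks, and covered 100% of the gene, with 48 bp at the 5′ end and 271 bp at the 3′ end. The 2 genes are of similar length (2165 and 2248 bp), and their 3′ overhangs differed more than those of the ribosomal protein genes. The median 3′ overhang was 188 bp in the Hsp70 group and 248 bp in the ribosomal protein group. With 2 or 3 genes in a group, the ranges of the 3 groups overlapped at the 3′ end (172 to 332 bp for elongation factors, 245 to 299 bp for ribosomal proteins, 105 to 271 bp for Hsp70). They also overlapped at the 5′ end, except that no ribosomal protein gene had a positive 5′ overhang with the bounds of the list.

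**Figure D3:**
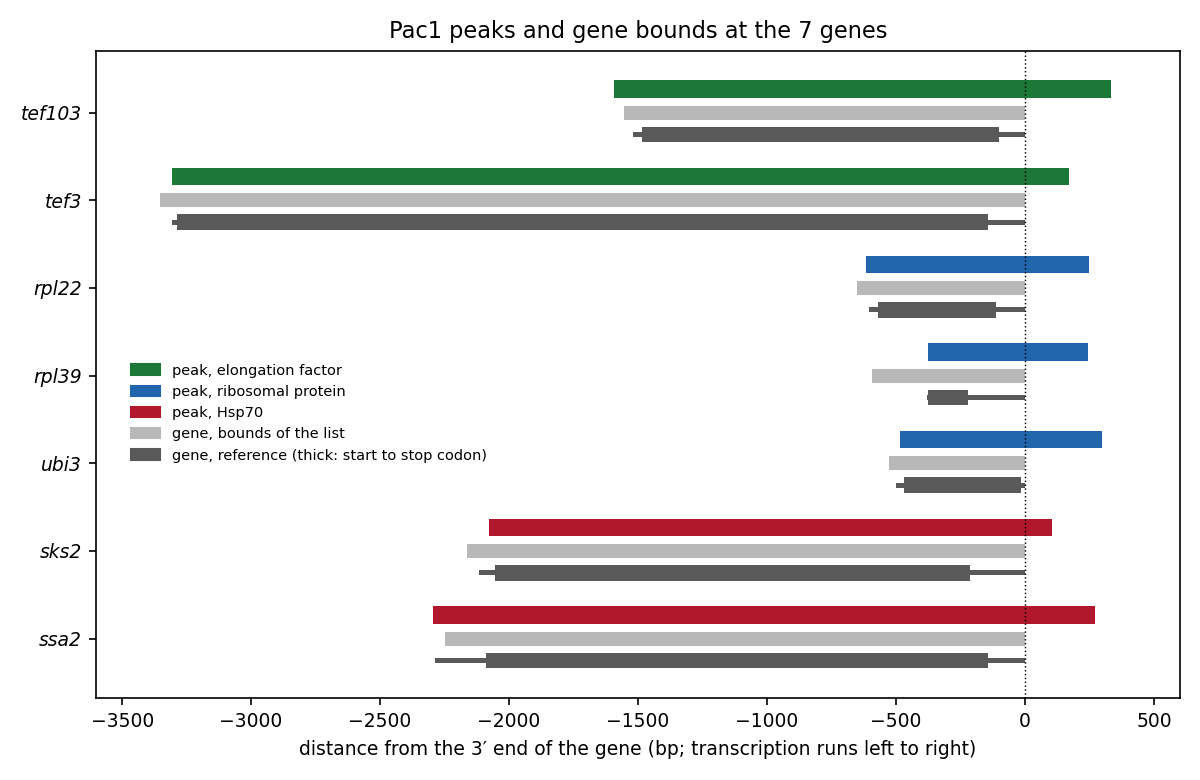
The 7 genes drawn to scale and aligned at their 3′ end (0 bp), with transcription from left to right. The coloured bar is the Pac1 peak, the light bar the gene as listed and the dark bar the gene of the reference annotation, thick from start to stop codon; all 7 peaks run past the 3′ end, by 105 to 332 bp.

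All 7 genes had in common that the peak ended past the 3′ end and that the 3′ overhang exceeded the 5′ overhang. The centre of the peak lay in the gene in 7 of 7, between 97 and 230.5 bp to the 3′ side of the gene midpoint. It lay to the 3′ side in 34 of the 58 other genes that hold a centre (58.6%), in 57 of the 95 other gene-peak pairs (60%) and in 9 of the 20 other genes that are alone in a peak (45%). The 7 genes had a median coverage of 95.9%, a median 5′ overhang of -44 bp and a median 3′ overhang of 248 bp. The 95 gene-peak pairs of the other 91 protein-coding genes had medians of 57.9%, -39 bp and 228 bp. Among the 58 other genes that hold the centre of their peak, the medians were 94.5%, -20 bp and 197.5 bp, close to those of the 7. The peak ended past the 3′ end in 7 of the 7 genes, against 38 of those 58 (65.5%). Where the other gene was the only one of its peak, the peak did so in 9 of 20 (45%), with a median 3′ overhang of -90.5 bp. Only 3 of the 7 genes are likewise alone in their peak. A 3′ overhang of 105 to 332 bp, the range of the 7 genes, was seen in 26 of the 58 (44.8%) and in 8 of the 20 (40%). The 8 were SPCC1322.10, SPCC794.03, hta2, eno101, fba1, psu1, SPAC1F8.07c and pgk1. Since the 7 genes were selected on this list, these counts are descriptions and were not tested.

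The 5′ overhang depended on where the gene was taken to begin. All 7 genes have the same 3′ end in the list and in the reference annotation, but none has the same 5′ end. In 6 of 7 the reference gene begins further downstream. With the reference bounds the 5′ overhang was 73 bp at tef103, -1 bp at tef3, 9 bp at rpl22, -3 bp at rpl39, -16 bp at ubi3, -40 bp at sks2 and 7 bp at ssa2. The 5′ edges of all 7 peaks thus lay within 73 bp of the reference gene start, with a median overhang of -1 bp. Among 55 other centre-holding genes that could be placed in the reference, the 5′ overhang had a median of 20 bp and extremes of -3099 and 3494 bp, and 32 of them (58.2%) lay within the range of the 7. The largest shift was at rpl39, whose coverage was 99.2% with the reference bounds in place of 63.6% with those of the list. Both HomolD boxes of rpl39 lie in the part of the listed gene that the reference leaves out, and so does the box of sks2 in its gene.

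**Figure D4:**
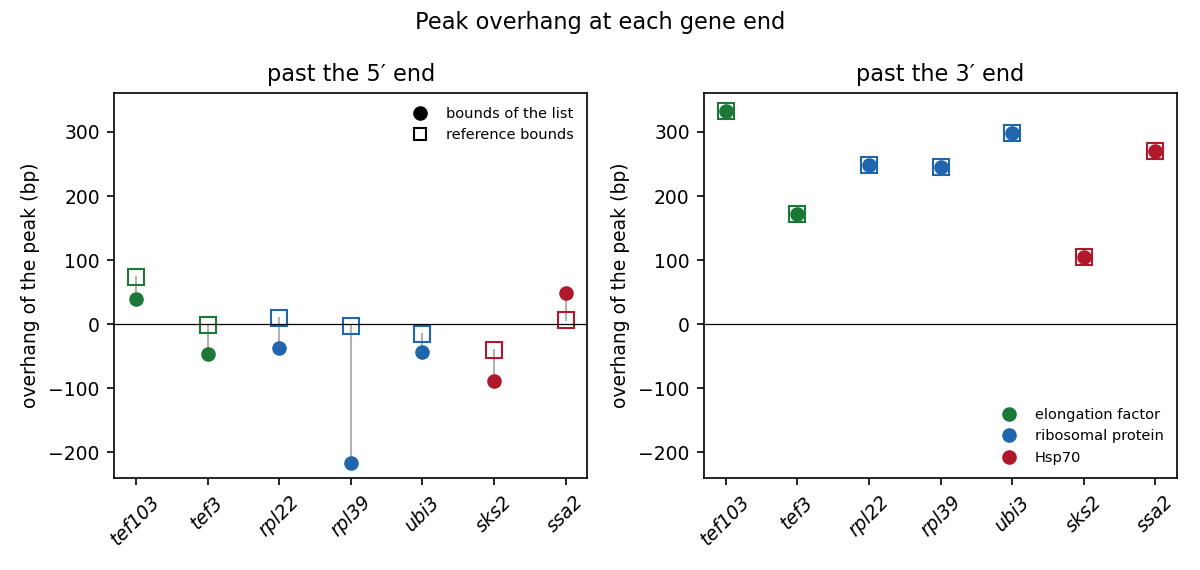
Overhang of the peak past the 5′ end (left) and the 3′ end (right) of each gene, in bp, where negative values mean that the peak stops inside the gene. Circles use the bounds of the list and squares those of the reference annotation; the 3′ values are the same in both, and at the 5′ end rpl39 moves from -216 to -3 bp.

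The coding region was wholly inside the peak in 7 of 7 genes, against 38 of 55 (69.1%) of the other centre-holding genes. The peaks began between 2 bp (rpl39) and 207 bp (ssa2) before the start codon, with a median of 20 bp. For the other genes this median was 239 bp. Past the stop codon the peaks reached 434 bp at tef103, 314 bp at tef3, 360 bp at rpl22, 464 bp at rpl39, 314 bp at ubi3, 319 bp at sks2 and 416 bp at ssa2. The median of these was 360 bp, and that of the 55 other genes 479 bp, 9 of which lay within the range of the 7. The reach past the stop codon varied less among the 7 genes than their coding lengths, which ranged from 156 bp in rpl39 to 3144 bp in tef3.

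At tef3, rpl39 and ubi3 the gene was the only one listed for its peak. The peak at rpl22 also covered 207 bp (16.9%) of ofd2, a gene on the opposite strand. That at ssa2 touched 34 bp of ppe1 and that at sks2 2 bp of dus2. At tef103 the peak took in 2 non-coding RNA genes: 57.1% of SPNCRNA.1375, past the 3′ end of tef103, and 100% of tef103-antisense-1, which is transcribed from within tef103 on the other strand. ChIP-seq reads do not carry the strand of transcription, so the part of tef103 and that of its antisense gene in this peak cannot be told apart.

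The closest relatives of the listed genes were mostly absent from the list, as were most protein-coding genes, of which 1.86% were listed. Their absence is therefore not a trait of these relatives. Paralogs were searched by protein alignment (at least 30% identity over at least 50% of both proteins), with the proteins translated from the reference genes. Outside the 7 genes themselves, 15 paralogs were found, of which 1, bip1, was listed. The other EF-1 alpha genes, tef102 and tef101, encode proteins 100% and 99.8% identical to that of tef103, and neither had a peak. More distant relatives of tef103 were absent as well: sup35 and hbs1, with roles in translation termination and ribosome rescue, and tuf1, the mitochondrial EF-Tu. For tef3, the single paralog was elf1 (40% identity), also absent. ubi5, like ubi3, encodes a ubiquitin-eS31 fusion and was absent. The 2 proteins were 100% identical over the aligned part, which was 99.3% of their length. Also absent were ubi1 and ubi2, which encode ubiquitin fused to eL40, and ned8, which encodes a ubiquitin-like modifier. No paralog met the rule for rpl22 or rpl39.

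In the Hsp70 family the picture was mixed. ssa2 was listed and ssa1, 92.7% identical to it, was not. bip1, the Hsp70 of the endoplasmic reticulum (61.5% identical to ssa2), was listed with a combined p-value of 1.51e-158. Its peak covered 91.7% of the gene and ended inside it, with an overhang of -188 bp at the 3′ end, unlike the peaks of the 7 genes. sks2 and ssa2 are 61.1% identical to each other. ssc1, the mitochondrial Hsp70, pss1 and ssz1 had no peak.

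The closest paralogs were alike in DNA as well as in protein. The coding regions of tef103, tef102 and tef101, of 1383 bases each, differ at 25 sites, 23 of them at the last base of a codon, and have an identical run of 218 bases. No 60-base stretch of the coding region holds more than 7 of these sites. The first stretch with 7, coding bases 1291 to 1350, is shown for these genes with the differing sites in capitals (ASM294v3, chromosomes II, I and III).
tef103: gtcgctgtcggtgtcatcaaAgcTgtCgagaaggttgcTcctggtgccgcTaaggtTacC
tef102: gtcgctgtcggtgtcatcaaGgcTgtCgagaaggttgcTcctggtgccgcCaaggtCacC
tef101: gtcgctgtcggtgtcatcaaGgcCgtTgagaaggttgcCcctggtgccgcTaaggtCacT

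The coding regions of ubi3 and ubi5, of 453 bases each, differ at 31 sites and have an identical run of 134 bases. Coding bases 94 to 153 of these genes, both on chromosome I, hold 11 of these sites, shown in capitals.
ubi3: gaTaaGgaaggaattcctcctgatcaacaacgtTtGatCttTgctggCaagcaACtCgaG
ubi5: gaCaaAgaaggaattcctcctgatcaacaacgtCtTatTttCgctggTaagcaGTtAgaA

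The libraries were read in single reads of 50 bases, so the share of 50-base windows that occur elsewhere in the genome gives how often such a read has no unique place. In the coding region this share was 79.7% in tef103, 79.1% in tef102 and 74.4% in tef101. It was 22.3% in ubi3 and likewise in ubi5, and 0.4% in ssa2 and in ssa1. In the 300 bases before the start codon and the 300 bases after the stop codon of these genes, no window occurred elsewhere. Over the whole peak, 1063 of 1875 windows (56.7%) of tef103 were shared and 812 were found once. In the peak of ubi3, 90 of 734 windows (12.3%) were shared, and in that of ssa2 0.3%. In the peaks of tef3, rpl22, rpl39 and sks2, 0 windows of 50 bases were found elsewhere. How the authors treated reads that map to several places is not given in the sources used here. The part of shared reads in the peak at tef103, and in the absence of a peak at tef102 and tef101, was not tested.

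**Figure D5:**
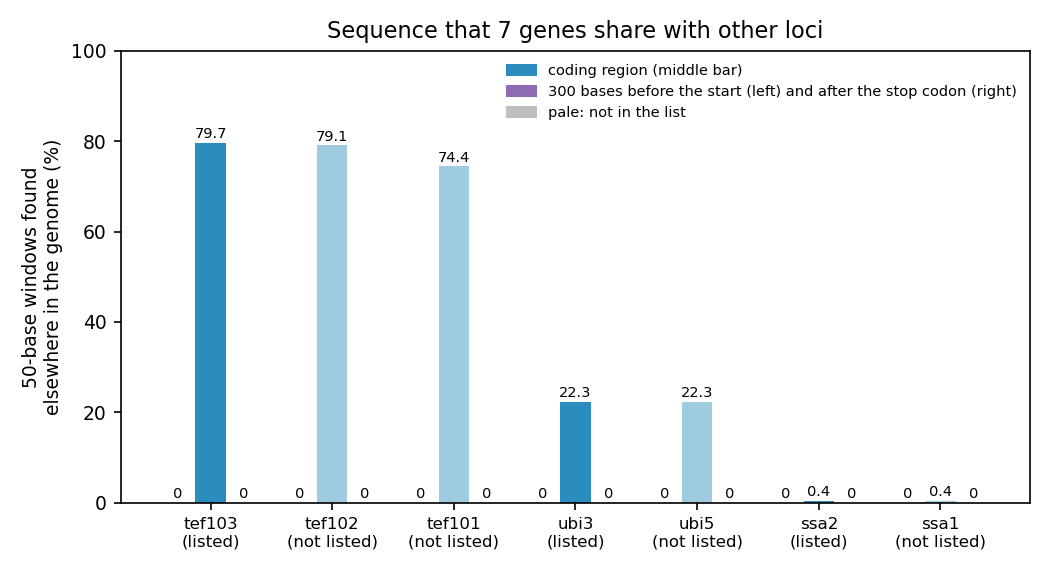
Share of 50-base windows (%) that occur elsewhere in the genome, in the coding region (middle bar) and in the 300 bases before the start codon and after the stop codon (left and right), for listed genes and, in pale bars, their unlisted paralogs. The EF-1 alpha genes share 74.4 to 79.7% of coding windows, and no gene shares a window outside the coding region.

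HomolD boxes were found in 4 of the 7 listed genes and in 4 of the 15 paralogs (tef102, tef101, ubi5 and ubi2), none of these 4 listed. The other 11 paralogs had none in the window searched. Thus all EF-1 alpha genes had a box, whether listed or not, and of the ubiquitin-eS31 genes only the unlisted one had it.

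The peaks were then set beside the rest of each family. Of 142 genes for cytosolic ribosomal proteins, 3 (2.11%) were listed, namely the 3 described here, which is near the background of 1.86%. Of 10 elongation factor genes 3 were listed: tef103, tef3 and tif51. Those not listed were tef101, tef102, eft201 and eft202 (the genes of the translocation factor EF-2), tef5, tif512 and SPAC29A4.02c. tif51, which encodes eIF5A, had a combined p-value of 2.67e-242, a coverage of 98.1%, -20 bp at the 5′ end and 199 bp at the 3′ end. Both overhangs lay within the ranges of the 7 genes. Of 8 genes of the Hsp70 and Hsp110 families 3 were listed (sks2, ssa2 and bip1), while lsh1, pss1, ssa1, ssc1 and ssz1 were not. In both of these families 2 of the 3 listed genes were there by choice, so the counts show no more than which relatives the list holds.

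Since Pac1 cuts RNA stems, the transcripts of the 7 genes were folded locally, within spans of 150 bases (RNALfold), and set beside 1022 other protein-coding genes. The longest run of stacked base pairs was 13 in tef103, 14 in tef3, 10 in rpl22 and in rpl39, 8 in ubi3, 14 in sks2 and 11 in ssa2. The 1022 genes ranged from 7 to 19 pairs with a median of 12, and 16.3% of them had 14 or more. Hence no gene of the 7 stood outside the range of the other genes in this measure. The measure counts unbroken runs of pairs alone, and these folds end at the gene end. The study states that Pac1 accepts stems with bulges, and such a stem scores as short here. The measure therefore cannot decide whether a transcript holds a Pac1 substrate. The stack of tef3 lies in its coding region, 99 to 141 bases from the gene start, and is shown as the most compact of the 14-pair stems, with paired bases in capitals (ASM294v3, chromosome III, gene strand).
tef3: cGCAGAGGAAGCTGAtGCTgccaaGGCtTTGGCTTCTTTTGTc

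The lowest folding energy was -60.3 kcal/mol in ssa2, where 0.294% of the 1022 genes had an energy as low, and -53.6 kcal/mol in tef3 (1.57% of genes). In sks2 it was -46.2 kcal/mol (15% of genes) and in tef103 -47.9 kcal/mol (10.4%). The 3 ribosomal protein genes had -36.5 to -41.6 kcal/mol, with 41.2 to 76.7% of genes at or below them. Longer genes have more spans from which the lowest is taken, and the genes were not matched on length. The part of gene length in the order of these energies was not tested. The structure of ssa2 covers bases 1713 to 1863 of the gene, in the coding region (chromosome III, paired bases in capitals).
ssa2: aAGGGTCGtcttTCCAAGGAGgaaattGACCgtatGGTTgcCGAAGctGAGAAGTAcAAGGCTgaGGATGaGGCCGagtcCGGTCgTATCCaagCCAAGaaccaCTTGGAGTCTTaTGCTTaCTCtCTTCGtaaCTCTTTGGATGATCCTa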

How the data were processed

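The deposited table holds peak bounds, gene bounds and, per peak, 1 p-value that the authors combined over both replicates. Per the study's methods, the authors trimmed reads (Trimmomatic), mapped them with HISAT2 to ASM294v2, ran MACS2 on every immunoprecipitate with the matching input (q of 0.01, fold of at least 2, duplicates kept) and merged the peaks with MSPC. Depth is unknown. Of the table's 12 columns, 5 were read as numbers.

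The 7 genes and all lists were chosen with earlier results of these data known; named are these genes, those sharing their peaks, their paralogs and listed genes of the family lists. A gene's overhang is the distance from its end to the peak's edge, positive where the peak extends beyond it. Coordinates are those of the table (ASM294v2). Gene starts, coding regions and sequences came from ASM294v3 (RefSeq), and 155 of 168 listed names were found there. Paralogs were found with BLAST 2.17.0 and folds with ViennaRNA 2.7.2, in Python 3.11.15. The scripts were tested on simulated data. No statistical test was made.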

Additional observations from a re-analysis of the deposited data

How the results depend on the processing

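Of 85 alternative values, 63 kept their sign and moved by less than a set limit. The limit was the spread between the genes of the group, for shares the 95% Wilson interval and for counts a factor of 1.5. For the 7 genes minus the others, it was the spread among the other gene-peak pairs. That limit is wide, and by it the coverage differences of 38 and 1.41 points given below count as unmoved. The sign of the 5′ overhang was the least stable value. Its median turned from -44 to 20 bp over the 7 genes with the coding region as bounds, from -4 to 63.5 bp for elongation factors, from -44 to 16 bp for ribosomal proteins and from -20.5 to 113.5 bp for Hsp70; with the reference gene bounds it was 36 bp for elongation factors. With combined p-values of at most 1e-200, which left tef103 and ssa2, it was 43.5 bp over both, 39 bp for tef103 and 48 bp for ssa2. The medians of the 3′ overhang stayed positive in the alternatives run; measured from the stop codon its median was 360 bp over the 7 genes, 374 bp for elongation factors, 360 bp for ribosomal proteins and 367.5 bp for Hsp70. The 7 genes minus the others differed in median coverage by 38 points over all pairs and by 1.41 points among genes holding the centre. Among single genes of a peak, which left tef3, rpl39 and ubi3 of the 7, the difference was -1.45 points. There the difference in median 3′ overhang was 335.5 bp, against 20 bp over all pairs. In 5′ overhang it was -5 bp over all pairs. With tef103 and ssa2 alone left of the 7, it was 61.5 bp at p-values of at most 1e-200. At that limit 0 ribosomal protein genes and 1 Hsp70 gene remained listed. With windows of 36 bases, the shortest read kept, the shared part of the gene was 76.3% in tef103, 29.7% in ubi3, 1.1% in ssa2 and 0.2% in sks2, in place of 72.3%, 20%, 0.3% and 0%. Folding the gene with 350 bases past its end, added after the data had been seen, gave ubi3 a stack of 14 pairs in place of 8. In that setting 204 of the 1022 other genes (20%) had a stack at least as long. With the gene strand alone, 2 genes had a HomolD box in place of 4. Leaving out each replicate was not run, since the table holds no value per replicate. No paired analysis was possible because no value comes from a test.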

Other observations

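Beyond the genes that the list names, the reference annotation places long non-coding RNA genes on the strand opposite to 5 of the 7 genes and under the same peaks. The search covered the peaks of the 7 genes alone. The share of other listed genes, or of all protein-coding genes, with such a neighbour was not computed. The count is therefore not shown to be a trait of the 7. SPNCRNA.7448 overlaps the peak at rpl39 over 446 bp and SPNCRNA.3448 that at ubi3 over 185 bp. SPNCRNA.5021 overlaps the peak at sks2 over 158 bp and SPNCRNA.4391 that at rpl22 over 10 bp. At ssa2 there are 2 such genes, SPNCRNA.7608 over 492 bp and SPNCRNA.7609 over 262 bp. Genes that the list names, such as tef103-antisense-1, were left out of this search by its rule. No further gene of this kind was found at tef103 or tef3.

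The Hsp90 gene, hsp90, which encodes a chaperone that acts after Hsp70 on many proteins, was listed as well. Its combined p-value was 8.51e-209, its coverage 99.7%, its 5′ overhang -9 bp and its 3′ overhang 273 bp, and its peak was shared with rlc1.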
